A study of Mus musculus with 2 samples.

Results

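The interferon regulatory factors (IRFs) are transcription factors that share a DNA-binding domain. The 8 members described here are Irf1, Irf2, Irf3, Irf4, Irf5, Irf7, Irf8 and Irf9, chosen by symbol from a table of 41214 mouse genes, and each symbol had 1 row. The name given to the deposited table refers to HepG2, a human liver line, but its gene IDs are mouse and its column names correspond to the titles of these samples. All 8 had at least 100 normalized reads in the library where they were higher, the floor used for every gene below. There were 2 labelled libraries, 1 given as from Cbl-/-Cblb-/- mice and 1 as from wild type mice, all of strain C57BL/6. Both came from splenic germinal centre B cells sorted as B220+Fas+GL7+CD138- on day 10 after intravenous injection of 1000000000 sheep red cells. Cbl and Cblb encode ubiquitin ligases that dampen signalling from the antigen receptor, and the study compared the RNA of these cells between the genotypes. Whether each library pooled several mice, and which exons the mutant alleles lack, was not given in the sources used here.

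IRF proteins bind DNA elements built on the sequence GAAA, such as the interferon-stimulated response element (ISRE). Some members carry signals from pathogen sensors or interferon receptors to target genes, while Irf4 and Irf8 are lymphoid and myeloid regulators that bind DNA largely with partner proteins. In germinal centre B cells Irf8 is abundant and linked to Bcl6 expression, whereas a high level of Irf4 favours plasma cell differentiation.

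Reads counted in genes came to 38223328 in the Cbl-/-Cblb-/- labelled library, against 26749540 in the wild type labelled library. Normalized reads are these reads divided by the authors' size factor for the library, and a log2 ratio is that of normalized reads plus 1. The targeted genes went against the labels. Cbl had 1183 normalized reads in the Cbl-/-Cblb-/- labelled library and 169 in the wild type labelled library, and Cblb 2839 and 1001. Directions below are therefore between labelled libraries, not between genotypes. With 1 library per group there is no replicate check and no test was run. Ratios carry 95% intervals that cover counting error only, and a gene is called higher or lower where its ratio is 1.5-fold or more. In a bulk sample, fewer cells of a type and less RNA per cell cannot be told apart.

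RefSeq promoter windows of 300 bases (250 before to 50 after a gene start, GRCm38.p6) were found for all 8 members, 11 windows in all. They were searched on both strands for the ISRE core (GAAA, any 2 bases, GAAA), the STAT-binding GAS element TTCNNNGAA, the Ets-IRF composite element (GGAA, any 2 bases, GAAA) and the kappaB consensus. Among all 32851 such windows, 3.44% held the ISRE core, 8.3% a GAS element, 2.72% the composite element and 4.51% the kappaB consensus. Irf1, Irf2 and Irf8 held matches in 1 window each, and the other 5 genes held none in any window. The 3 windows with matches are shown, with Irf3 as a gene without one that had the lowest ratio of the family. All 4 lie on the plus strand, read 5′ to 3′, and capitals mark motif matches:
Irf1, chr11:53769764-53770063: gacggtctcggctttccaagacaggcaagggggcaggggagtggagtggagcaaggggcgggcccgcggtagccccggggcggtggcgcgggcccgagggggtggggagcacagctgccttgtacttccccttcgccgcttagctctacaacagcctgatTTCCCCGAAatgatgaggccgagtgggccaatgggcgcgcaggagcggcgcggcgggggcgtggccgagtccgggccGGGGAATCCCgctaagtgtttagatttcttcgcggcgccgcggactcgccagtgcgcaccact
Irf2, chr8:46739495-46739794: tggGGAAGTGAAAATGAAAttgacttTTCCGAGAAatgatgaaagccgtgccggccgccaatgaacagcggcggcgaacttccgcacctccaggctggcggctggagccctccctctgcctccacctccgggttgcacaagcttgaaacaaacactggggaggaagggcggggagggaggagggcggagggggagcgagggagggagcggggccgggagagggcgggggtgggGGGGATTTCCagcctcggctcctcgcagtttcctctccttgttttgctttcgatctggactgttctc
Irf8, chr8:120736108-120736407: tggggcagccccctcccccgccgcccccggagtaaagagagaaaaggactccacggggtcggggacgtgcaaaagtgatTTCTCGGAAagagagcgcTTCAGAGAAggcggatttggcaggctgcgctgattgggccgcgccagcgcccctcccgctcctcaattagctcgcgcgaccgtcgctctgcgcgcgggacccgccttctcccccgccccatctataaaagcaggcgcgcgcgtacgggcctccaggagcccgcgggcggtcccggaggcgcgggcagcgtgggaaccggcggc
Irf3, chr7:44997398-44997697: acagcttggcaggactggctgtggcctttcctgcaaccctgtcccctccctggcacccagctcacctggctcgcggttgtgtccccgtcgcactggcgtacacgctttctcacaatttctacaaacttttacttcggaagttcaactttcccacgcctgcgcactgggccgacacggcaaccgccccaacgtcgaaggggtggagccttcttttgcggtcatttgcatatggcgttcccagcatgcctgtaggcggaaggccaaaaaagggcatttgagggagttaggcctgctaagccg
In Irf1 the capitals are a GAS element and a kappaB match. In Irf2 they are a composite element that overlaps an ISRE core, then a GAS element and a kappaB match near the gene start. In Irf8 both matches are GAS elements. A match is a resemblance of letters and not a measured binding site.

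Levels per length, in normalized reads per kb of deposited gene length, placed Irf8, Irf5, Irf2 and Irf3 at the top in the Cbl-/-Cblb-/- labelled library, with 2724, 2080.1, 1352 and 1074 reads per kb. Irf1 (646), Irf4 (486), Irf9 (373) and Irf7 (371) followed there. Irf9 and Irf7 did not differ beyond counting error (ratio 1.006, interval 0.946 to 1.07), whereas every other pair of neighbours in that order did.

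In the wild type labelled library the order was Irf3 (3279), Irf8 (3150.1), Irf5 (2239.9), Irf7 (793), Irf2 (543), Irf4 (269.7), Irf1 (235) and Irf9 (227). The last neighbours, Irf1 and Irf9, did not differ beyond counting error (ratio 1.03, interval 0.932 to 1.15), and the other neighbours did, with Irf3 above Irf8 by a ratio of 1.04 (1.012 to 1.07). Irf3 thus stood in place 4 in the Cbl-/-Cblb-/- labelled library and in place 1 in the wild type labelled library, and Irf7 in places 8 and 4.

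**Figure D1:**
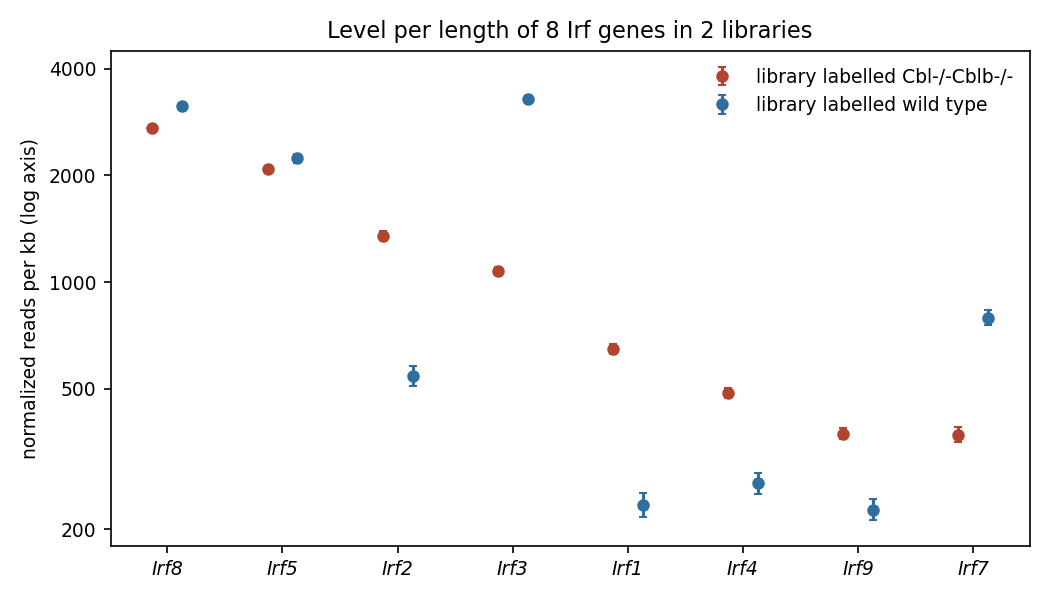
Normalized reads per kb of deposited length (log axis) for each Irf gene, with the Cbl-/-Cblb-/- labelled library left of the wild type labelled library and bars for exact Poisson 95% intervals. Irf3 had 1074 reads per kb in the Cbl-/-Cblb-/- labelled library and 3279 in the wild type labelled library, while Irf8 had 2724 and 3150.1.

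The deposited length was longer than the longest coding transcript in GENCODE M21 for 6 members, 7055 against 2847 bases for Irf8, and slightly shorter for Irf2 (2484 against 2497) and Irf4 (4715 against 4764). With coding transcript lengths Irf8 came first in both libraries, at 6750.4 reads per kb in the Cbl-/-Cblb-/- labelled library and 7806 in the wild type labelled library. Irf3 then came in place 3 in the Cbl-/-Cblb-/- labelled library (1685) and in place 2 in the wild type labelled library (5146). Irf4 was last in both on that scale, with 481 and 267 reads per kb.

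Of the summed reads per kb of the 8 members, Irf3 made up 11.8% in the Cbl-/-Cblb-/- labelled library and 30.5% in the wild type labelled library. The shares of Irf2 were 14.9% and 5.06%, those of Irf1 7.09% and 2.19%, and those of Irf7 4.07% and 7.39% in the same order of libraries. Irf8 held 29.9% in the Cbl-/-Cblb-/- labelled library and 29.3% in the wild type labelled library. With coding transcript lengths the shares of Irf2 were 8.77% in the Cbl-/-Cblb-/- labelled library and 2.91% in the wild type labelled library, those of Irf1 7.83% and 2.35%, those of Irf7 3.26% and 5.76% and those of Irf8 44.0% and 42.0%. As a share of all reads, the family took 0.15% of the Cbl-/-Cblb-/- labelled library (57259 reads, exact Clopper-Pearson 95% interval 0.149% to 0.151%) and 0.121% of the wild type labelled library (32400 reads, 0.120% to 0.122%). The summed level of the 8 members ran the other way on the normalized scale, with 40023 normalized reads in the Cbl-/-Cblb-/- labelled library and 46354 in the wild type labelled library, so the direction of the family's total depends on the scaling.

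**Figure D2:**
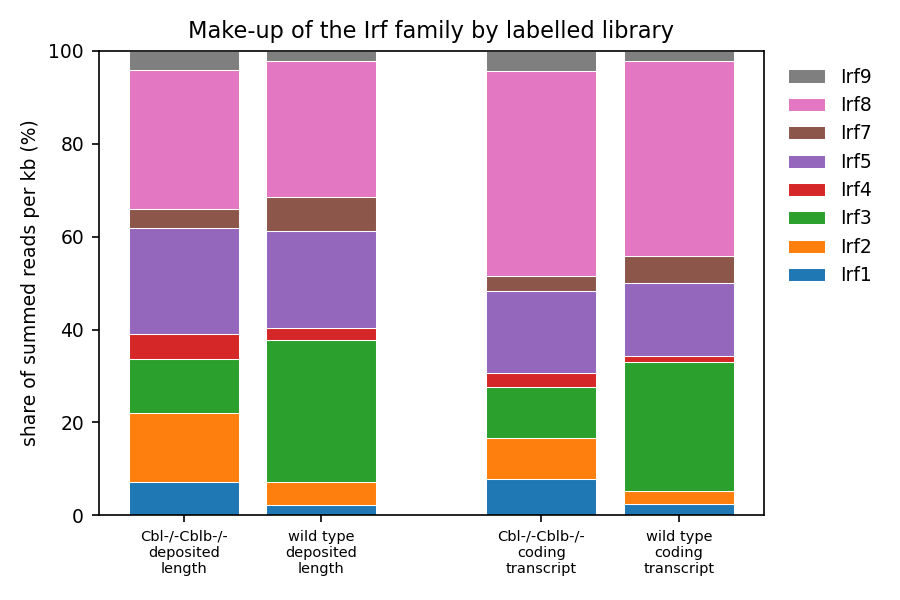
Share of each Irf gene in the summed reads per kb of the 8 genes, by labelled library, with deposited lengths on the left and the longest coding transcripts on the right. Irf3 took 11.8% in the Cbl-/-Cblb-/- labelled library and 30.5% in the wild type labelled library with deposited lengths, and 11.0% and 27.7% with coding transcripts.

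Irf1, an activator induced by interferon-gamma, and Irf2, which competes with it for the same DNA elements, had the highest ratios of the family. Irf1 (ENSMUSG00000018899, chromosome 11, 53770014 to 53778374, plus strand of GRCm38) had 2567 normalized reads in the Cbl-/-Cblb-/- labelled library and 934 in the wild type labelled library. It was 2.75-fold higher (2.53 to 2.99) in the Cbl-/-Cblb-/- labelled library. Irf2 (ENSMUSG00000031627, chromosome 8, 46739732 to 46847458, plus strand) had 3359 and 1349 normalized reads in the Cbl-/-Cblb-/- and wild type labelled libraries, 2.49-fold higher (2.32 to 2.67). The ratio of Irf1 to Irf2 reads, which needs no scaling between libraries, was 1.10 times as large in the Cbl-/-Cblb-/- labelled library as in the wild type labelled library, with an interval of 0.990 to 1.23 that includes 1. Irf1 and Irf2 are the members that hold both a GAS element and a kappaB match in the windows printed above. Whether these matches are linked to the ratios was not tested.

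Irf3 and Irf7, the factors phosphorylated downstream of nucleic acid sensors to switch on type I interferon genes, were the lower members. Irf3 (ENSMUSG00000003184, chromosome 7, 44997648 to 45002848, plus strand) had 3421 normalized reads in the Cbl-/-Cblb-/- labelled library and 10451 in the wild type labelled library. It was 3.05-fold lower (2.95 to 3.17) in the Cbl-/-Cblb-/- labelled library. Irf7 (ENSMUSG00000025498, chromosome 7, 141262706 to 141266481, minus strand), itself induced by interferon, had 1119.8 and 2396 normalized reads in the Cbl-/-Cblb-/- and wild type labelled libraries, 2.14-fold lower (1.997 to 2.29). The ratio of Irf3 to Irf7 reads was 0.701 times as large (0.648 to 0.757) in the Cbl-/-Cblb-/- labelled library as in the other, so Irf3 was lower there by more than Irf7.

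Neighbouring genes on the opposite strand share exon bases with both, and whether counting used strand was not given, so those reads are uncertain in origin. Exons of Bcl2l12 cover 88 bases of Irf3 (2.56% of its exon length), and Bcl2l12 had 729 normalized reads in the Cbl-/-Cblb-/- labelled library and 1032 in the wild type labelled library. Exons of Phrf1 cover 45 bases of Irf7 (1.19%), and Phrf1 was higher in the Cbl-/-Cblb-/- labelled library (log2 ratio 1.012).

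Irf9, which joins STAT2 in the complex that binds the ISRE after type I interferon, was 1.64-fold higher (1.52 to 1.77) in the Cbl-/-Cblb-/- labelled library. Irf9 (ENSMUSG00000002325, chromosome 14, 55603571 to 55610030, plus strand) had 2009 normalized reads in the Cbl-/-Cblb-/- labelled library and 1225 in the wild type labelled library. Exons of Rnf31, on the same strand, cover 123 bases of Irf9 (2.28%). Irf5, which acts downstream of Toll-like receptors through MyD88, differed little. Irf5 (ENSMUSG00000029771, chromosome 6, 29526625 to 29541871, plus strand) had 6038 normalized reads in the Cbl-/-Cblb-/- labelled library and 6502 in the wild type labelled library, a ratio of 0.929 (0.896 to 0.963). Exons of Tnpo3, on the opposite strand, cover 411 bases of Irf5 (14.1%), so the Irf5 count is uncertain.

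The lymphoid members differed from each other. Irf4 (ENSMUSG00000021356, chromosome 13, 30749226 to 30766976, plus strand) had 2289.8 normalized reads in the Cbl-/-Cblb-/- labelled library and 1272 in the wild type labelled library, 1.80-fold higher (1.67 to 1.94). Irf8 (ENSMUSG00000041515, chromosome 8, 120736358 to 120756694, plus strand) had 19218 and 22224 normalized reads in the Cbl-/-Cblb-/- and wild type labelled libraries, a ratio of 0.865 (0.848 to 0.882). Irf8 was by far the more abundant of them in both libraries. Per kb of deposited length, Irf4 stood at 0.178 of Irf8 in the Cbl-/-Cblb-/- labelled library and at 0.0856 in the wild type labelled library. That ratio was 2.08 times as large (1.93 to 2.25) in the Cbl-/-Cblb-/- labelled library, a comparison that does not depend on scaling between libraries. It does depend on the length trend described below, and was 2.96 adjusted for deposited length and 1.27 adjusted for coding transcript length, both chosen after seeing the data. With coding transcript lengths Irf4 stood at 0.0712 of Irf8 in the Cbl-/-Cblb-/- labelled library and at 0.0342 in the wild type labelled library. Irf4 shares no exon bases with another gene in the annotation, and the exons of Irf8 do not overlap those of the read-through model Gm20388, which had 0 reads in both libraries.

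In the family, 4 of 8 members were higher in the Cbl-/-Cblb-/- labelled library (Irf1, Irf2, Irf4 and Irf9) and 2 were lower (Irf3 and Irf7). Among the 10443 genes over the floor 38.6% were higher and 31.9% lower, so the family's counts lie near the background. The median log2 ratio was 0.30 over the members and 0.15 over all genes.

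Ratios between these libraries followed gene length, and the members were set beside genes of similar length. Irf2 (2484 bases) had a log2 ratio of 1.32, where genes of 2189 to 2894 bases had a median of -0.33 and an upper quartile of 0.42. Irf1 (3976 bases) had 1.46, above the upper quartile of 0.997 among genes of 3653 to 4510 bases. Both were high for their length.

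Irf3 (3187 bases) and Irf7 (3020 bases) had log2 ratios of -1.61 and -1.10, below the lower quartile of -0.64 among genes of 2894 to 3652 bases, while Irf5 (2903 bases, -0.11) lay between the quartiles. Irf4 (4715 bases, 0.85) and Irf9 (5386 bases, 0.71) lay close to the median of 0.60 among genes of 4511 to 5679 bases. Irf8 (7055 bases, -0.21) lay below the lower quartile of 0.10 among genes of 5681 to 7608 bases, of which 10.3% were lower and 61.0% higher.

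**Figure D3:**
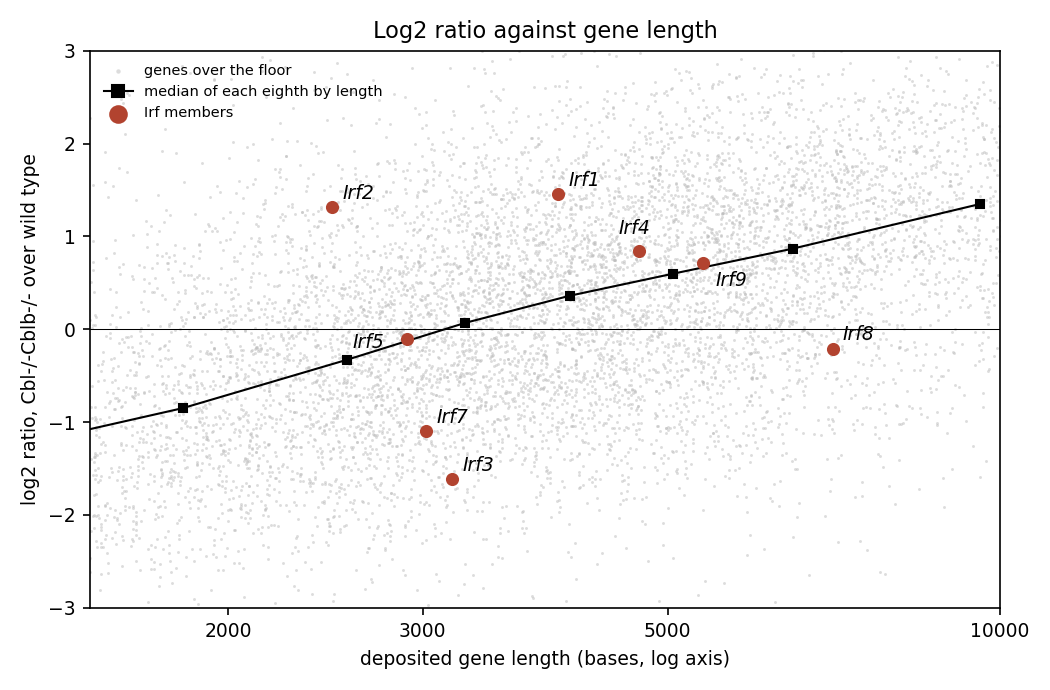
Log2 ratio of normalized reads, Cbl-/-Cblb-/- labelled library over wild type labelled library, against deposited gene length (log axis), showing the 8228 of 10443 genes over the floor that fall within the axes. Black squares are medians of 8 length groups, and Irf1 and Irf2 (1.46 and 1.32) lie above that line while Irf3, Irf7 and Irf8 (-1.61, -1.10 and -0.21) lie below it.

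A fit of the log2 ratio on length and its square over all genes took up 23.7% of the variance. In the adjusted log2 ratios, what that fit leaves, 2 members were higher (Irf2 at 1.61 and Irf1 at 1.28) and 3 lower (Irf3 at -1.56, Irf8 at -1.09 and Irf7 at -0.99), beside 28.7% and 33.5% of all genes. Irf4 (0.47) and Irf9 (0.18) were no longer past 1.5-fold. The adjusted value of Irf8 rests on its deposited length, and was -0.36 when the fit used the longest coding transcript. Irf4 stood at -0.012 in that fit. With GC content and the ratio of GENCODE M21 exon length to deposited length also in the fit, 2 members were higher and 3 lower, beside 26.2% and 30.5% of all genes.

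Scaling to total reads moved the median log2 ratio of all genes to 0.70 and left 53.0% of genes higher and 20.5% lower. Irf8 and Irf5 then turned positive, at 0.31 and 0.41, and Irf7 at -0.58 was just short of 1.5-fold lower. Irf1 and Irf2 stayed higher and Irf3 lower under each of the 10 alternatives tried, at 1.28 to 1.98, 1.04 to 1.83 and -1.76 to -1.04.

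**Figure D4:**
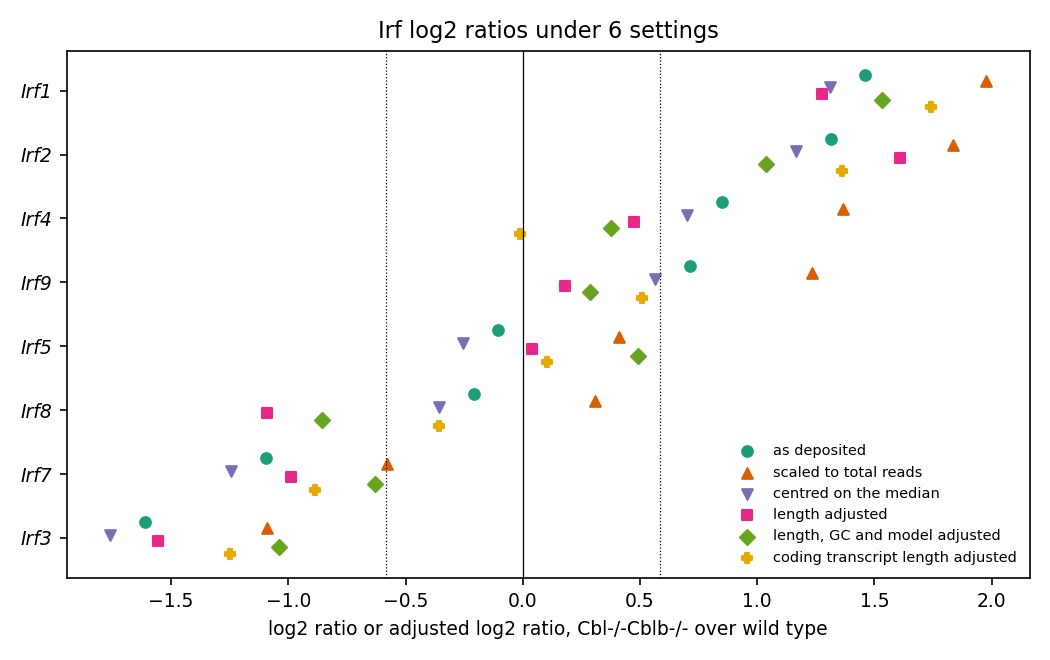
Log2 ratio of each Irf gene, Cbl-/-Cblb-/- labelled library over wild type labelled library, as deposited and under 5 alternative scalings or adjustments, with dotted lines at a 1.5-fold ratio. The 6 points of Irf1 and the 6 of Irf2 lie right of the lines and the 6 of Irf3 left of them, whereas those of Irf8 run between -1.09 and 0.31.

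The genes around the family were described by list. Of 17 upstream sensors, adaptors and kinases 14 were over the floor, of which 9 were higher and 1 lower in the Cbl-/-Cblb-/- labelled library, with a median log2 ratio of 0.96 (adjusted 0.71). Tlr9, the endosomal DNA sensor upstream of Irf5 and Irf7, had 2938 normalized reads in the Cbl-/-Cblb-/- labelled library and 68.7 in the wild type labelled library, 42.8-fold higher (32.2 to 58.1). Tlr4, the lipopolysaccharide receptor, stood at a log2 ratio of 1.88 (adjusted 1.31), the adaptor gene Traf3 at 1.76 (adjusted 0.82) and Ddx58, which encodes the RNA sensor RIG-I, at 1.67 (adjusted 0.79). The lower member was the kinase gene Ikbke (-0.90). Tbk1, a kinase of Irf3, stood at 1.003 (adjusted 1.11), in the opposite direction to Irf3. Ikbke (adjusted -2.13) went in the same direction as Irf3.

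Among 12 interferon receptor and JAK-STAT genes 5 were higher and 0 lower (median 0.54, adjusted 0.50). No test was possible for these counts. Jak1, a kinase of interferon receptors, stood at 1.52 (adjusted 0.60). Usp18, a feedback inhibitor of type I interferon signalling, stood at 1.23 (adjusted 1.80) on 189 and 39 reads. Socs3 stood at 0.93 (adjusted 1.08) and Jak2 at 0.86 (adjusted 0.41). Stat2, which encodes a partner of Irf9, had 3450.1 normalized reads in the Cbl-/-Cblb-/- labelled library and 2160.3 in the wild type labelled library (1.60-fold higher, 1.51 to 1.69). Its adjusted log2 ratio was 0.38, and 0.48 in the fit with GC content, both short of 1.5-fold.

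Of 11 DNA-binding partners 10 were over the floor, 5 higher and 3 lower, with a median of 0.23 (adjusted 0.30). Ikzf3 (1.75, adjusted 0.56), Ets1 (1.53, adjusted 0.39) and Ikzf1 (1.44, adjusted 0.82), genes of lymphoid transcription factors, were higher, and Jund (-1.82, adjusted -1.66) was lower, though at 0.071 with GC content and exon length over deposited length in the fit. Spi1 and Spib, which encode the Ets factors that recruit Irf4 and Irf8 to composite elements, had 2873 and 25206 normalized reads in the Cbl-/-Cblb-/- labelled library and 5319 and 31008 in the wild type labelled library. Spi1 was thus 1.5-fold or more lower (log2 ratio -0.89), and Spib was not (-0.30). In the fit with GC content Spi1 stood at 0.053.

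Among 8 genes of IRF-binding proteins 3 were higher and 4 lower (median -0.42, adjusted -0.54). Irf2bpl, a relative of the Irf2 corepressors, stood at 2.08 on 395 and 45 reads. Def6 (-1.38), which binds Irf4, and Fkbp4 (-1.18) were lower, but stood at -0.31 and -0.56 in the fit with GC content. Of 9 B cell genes tied to Irf4 and Irf8, 5 were higher and 1 lower (median 0.79), whereas after adjustment for length 2 were higher and 1 lower (median 0.29). Of all genes over the floor, 28.7% were higher and 33.5% lower after that adjustment. Rel, an NF-kappaB subunit gene upstream of Irf4, stood at 3.81 (adjusted 3.99), Ciita, the activator of MHC class II genes, at 1.91 (adjusted 1.41), Bach2 at 1.66 (adjusted 0.29) and the B lineage factor Pax5 at -2.12 (adjusted -1.82).

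Of 27 interferon-stimulated genes 20 were over the floor, 11 higher and 4 lower, with a median of 0.71 (adjusted 0.65). Ifit2 (2.94, on 324 and 20 reads), Mx1 (2.39, on 220 and 20 reads) and the GTPase gene Irgm1 (1.84) were higher. Psmb8, an immunoproteasome subunit gene, was lower at -1.89 with 11860.2 normalized reads in the Cbl-/-Cblb-/- labelled library and 43996 in the wild type labelled library. The background shares of 38.6% higher and 31.9% lower apply to the counts of each of these lists as deposited.

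**Figure D5:**
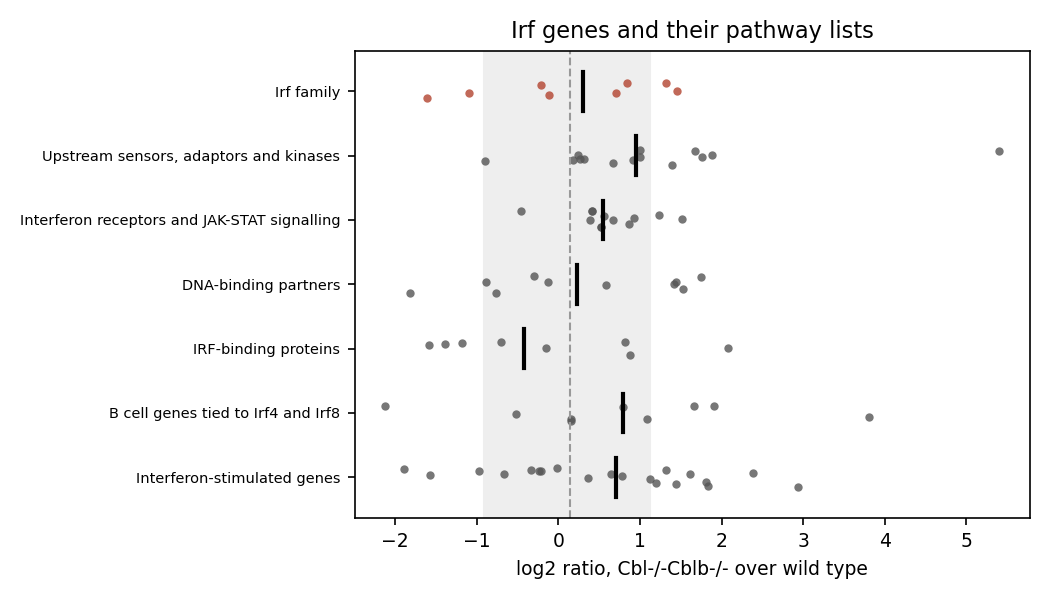
Log2 ratio, Cbl-/-Cblb-/- labelled library over wild type labelled library, of each Irf gene and of each gene over the floor in 6 pathway lists, with black bars at list medians. The grey band spans the quartiles of all genes (-0.91 to 1.13) around their median of 0.15 (dashed), a range of single genes to be set beside the points and not the bars. The bars stand at 0.30 for the family and at -0.42 to 0.96 for the lists.

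Genes of B cells were abundant in both libraries. Cd79a had 30765 normalized reads in the Cbl-/-Cblb-/- labelled library and 64212 in the wild type labelled library. The 4 B cell markers, 3 of them lower (1 when adjusted for length), summed to 149389 and 335773 in the same order. Beside this count and the marker counts below, 38.6% of all genes over the floor were higher and 31.9% lower. Adjusted for length these shares were 28.7% and 33.5%. The germinal centre genes Bcl6, Fas and S1pr2 had 2819 to 13835 normalized reads in the Cbl-/-Cblb-/- labelled library and 4137 to 12720.0 in the wild type labelled library. The 5 T cell markers had 0 to 15 reads per library and the 4 neutrophil markers 0 to 12. Irf5, Irf7 and Irf8 are also expressed by macrophages and dendritic cells. All 8 macrophage markers had reads in both libraries, with sums of 1216 normalized reads in the Cbl-/-Cblb-/- labelled library and 1731 in the wild type labelled library. Of the 5 over the floor, Cd68, C1qa and C1qb were lower and Adgre1 (151 against 55.8) higher in the Cbl-/-Cblb-/- labelled library, and adjusted for length 1 was lower (C1qa) and 1 higher. Under the floor, Mertk had 55.2 normalized reads in the Cbl-/-Cblb-/- labelled library and 5.72 in the wild type labelled library, and Lyz2 95.8 and 37.2. Cd14, also under the floor, went the other way, with 4.89 and 22.9 normalized reads in the same order of libraries. The 5 dendritic cell markers summed to 1262 normalized reads in the Cbl-/-Cblb-/- labelled library and 1289 in the wild type labelled library, most of them from Flt3 (1070.1 and 1229), while Itgax had 157 and 28.6, and Xcr1 and Clec9a 4 to 12 counted reads per library. Of the plasmacytoid markers, Siglech, Ccr9 and Cox6a2 had 0 to 14 counted reads per library, and Pacsin1 2195 normalized reads in the Cbl-/-Cblb-/- labelled library and 2577 in the wild type labelled library. Plasma cells carry more Irf4 than germinal centre cells. The CD138- gate of the sort is aimed at leaving out plasma cells, since Sdc1 encodes CD138, and the B220+ gate most macrophages and conventional dendritic cells. How far the gates did so was not tested. Of the plasma cell markers Sdc1 had 130.0 normalized reads in the Cbl-/-Cblb-/- labelled library and 95.9 in the wild type labelled library, Prdm1 244 and 114, Xbp1 4798 and 4308, and Tnfrsf17 6.99 and 22.9. Of the erythroid markers Hbb-bt had 30.8 normalized reads in the Cbl-/-Cblb-/- labelled library and 594 in the wild type labelled library, and the other 3 had 0 to 12 counted reads. The part of such cells in the Irf values was not tested.

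Among 9337 other protein-coding genes, those nearest to Irf4 in log2 reads per kb over the 2 libraries were Tex10, Tollip and Cdc6, at distances of 0.02 to 0.04. Nearest to Irf8 were Tcf3, Vim and Hip1r, at 0.07 to 0.11. With 2 libraries such nearness describes level and ratio only.

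The authors' deposited table gives the 8 members unadjusted p-values of 0.206 (Irf3) to 0.927 (Irf5) and adjusted p-values whose smallest is 0.944. The authors' deposited table also gives fold changes with the same sign as the ratios above for all 8. Its p-values rest on 1 library per genotype.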

How the data were processed

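Per the labels' protocols, RNA of the sorted cells went into TruSeq libraries, read from both ends over 50 bases each on an Illumina HiSeq. Tools in the submitters' processing notes are DESeq2 1.4.5, TopHat2 2.0.10 and featureCounts, with the build GRCm38 and no role for each. The annotation, strand setting and treatment of multiple matches are not given in the sources used here. Per the file headers, signal columns that the authors deposited hold gene reads scaled for library size, and the table's base mean signal is deposited with them. All values were whole multiples of a step within 0.001 read (100% of each library), which gave back the whole reads. With 1 library per group a count test would have no residual degrees of freedom. None was run, and 0 genes are called by a test. The FPKM values, log2 fold changes, score columns (standard error and test statistic) and p-values deposited by the authors were used only where named, per the file headers.

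The log2 ratio is that of normalized reads plus 1, Cbl-/-Cblb-/- over wild type, which understates low genes. The floor was 100 normalized reads in whichever library was higher. Ratios of reads have exact conditional 95% intervals, levels exact Poisson intervals, shares of reads exact Clopper-Pearson intervals, and changes of within-library ratios log odds intervals. All cover counting error only, since reads carry no molecular identifiers. Adjusted log2 ratios are residuals on log2 length and its square over 10443 genes. GENCODE M21 (GRCm38) gave positions, exon overlaps and transcript lengths, and GC content for 10386 genes. The named genes are the 8 members, Cbl and Cblb, up to 4 genes per list with the largest absolute log2 ratio, markers and nearest genes. Tbk1, Ikbke, Stat2, Spi1, Spib and overlapping genes were added after their values were seen. Members, the 6 gene lists, the 9 marker lists and the motifs were chosen with earlier results of these data known. Adgre1 was matched by gene ID. Values of some listed genes are not reported here. The ratio, interval and length fit were tested on simulated data. Python 3.11.15, numpy 2.4.6, pandas 2.3.3, scipy 1.17.1 and matplotlib 3.10.9 were used.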

Additional observations from a re-analysis of the deposited data

How the results depend on the processing

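The median log2 ratio of the 8 members (0.30 as deposited) was 0.82 scaled to total reads, 0.81 scaled without immunoglobulin genes, 0.16 centred on the median of all genes, 0.11 adjusted for length and 0.045 adjusted for coding transcript length, the last an alternative chosen after seeing the data. Adjusted for length, GC content and exon length over deposited length it was 0.33. The 4 higher members became 2 under each of the 3 adjustments and 3 when centred. The 2 lower members became 1 scaled to total reads and 3 adjusted for length, with or without the other terms. Pseudocounts of 10 and 0.5, a floor of 20 and no floor left the counts at 4 and 2. Irf1, Irf2, Irf3 and Irf5 kept their side of the 1.5-fold line under all 10 alternatives, Irf7 under 9, Irf8 under 8, Irf4 under 7 and Irf9 under 6. Irf4 was -0.012 when adjusted for coding transcript length. Irf5 and Irf8, neither of which was past 1.5-fold as deposited, changed sign under 5 and 2 alternatives. The change of the Irf4 to Irf8 ratio, 2.08 as deposited, ran between 1.27 and 2.96 over the 3 adjustments, which for this ratio were chosen after seeing the data. The cause was not tested beyond what each alternative changes by construction. No paired analysis was possible because each group holds 1 library. No library could be left out for the same reason. No member had fewer than 653 reads in either library, but counting intervals do not contain the spread between mice. Whether the difference in depth between the libraries bears on these values was not tested.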
